A study of Macaca mulatta with 12 samples.

Results

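Reads of 30 to 44 nucleotides whose start had no exact match in the available pre-miRNAs were examined in 12 small RNA profiles of 8 tissues of Macaca mulatta. A sequence was included when it had 30 to 44 nucleotides and when its first 18 nucleotides occurred in none of the 832 pre-miRNAs of the study that could be read. By this rule, 268491 of the 4384584 unique sequences were members. They held 1814897 of 285066826 valid reads, or 0.637%. The animals were wild type, untreated and 36 months old. There were 2 profiles from each of kidney, muscle and the small and large intestines, and 1 from each of liver, lung, occipital lobe and spinal cord. The occipital lobe and spinal cord profiles were joined as 1 neural group for the tests. The 12 profiles came from only 2 animals, and the labels do not say which animal a profile came from. Profiles of 1 animal are thus treated as separate samples in all tests here, and p-values measure only the spread between these profiles, which may in part be technical.

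Long reads in a small RNA library mostly come from abundant structured RNAs. Ribosomal RNAs (rRNAs) build the ribosome, and their degradation leaves fragments of many lengths. Transfer RNAs (tRNAs) can be cut in the anticodon loop by stress-induced ribonucleases, which leaves a 5’ part that starts at the first base of the tRNA. Y RNAs and vault RNAs are short polymerase III transcripts that are cut in a similar way. Mitochondrial RNA is transcribed from both strands as long precursors, in which the tRNAs mark the sites of cleavage.

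The depth was similar in all profiles, from 22118095 valid reads in large intestine 1 to 25579064 in kidney 1. Levels are given in the study’s unit RPTM, for which the reads of a profile are scaled to a total of 10000000 valid reads. At this depth, a count of 0 allows a level of up to 1.17 to 1.36 RPTM. The miRNAs that mark liver, muscle and neurons followed the labels. miR-122-5p of hepatocytes had 8775 RPTM in liver and at most 6.12 elsewhere, miR-133a-3p of muscle had 67288 and 69549 in the muscle profiles and at most 289 elsewhere, and miR-124a-3p of neurons had 1684 and 5896 in spinal cord and occipital lobe and at most 3.75 elsewhere. miR-215-5p was highest in the intestines, and miR-34c-5p and miR-449a in lung. Others were less exclusive. miR-194-5p of intestine had 27461 and 18355 RPTM in small intestine, but 6935 in liver, above large intestine (5481 and 2532). miR-10b-5p of kidney had 4240485 and 4062182 in kidney, but also 2119201 and 1662528 in muscle. miR-451-5p of red blood cells was 370 RPTM in muscle 1 and 6215 in muscle 2, and its part in the differences between these profiles was not tested.

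Long reads of the same RNA overlap, so the unique sequences were joined into 312 longer sequences wherever their reads overlapped, and 111 of these could be named. The names rest on textbook knowledge of these RNAs, since no reference sequence of the macaque was used. The most abundant member was a fragment of 28S rRNA, the large RNA of the large ribosomal subunit. It is shown with its longer form, whose additional 5’ base is in capitals, and with the sequence assembled around it, in which the 30-nucleotide form is in capitals.
28S rRNA fragment, 30 bases: tggggggcccaagtccttctgatcgaggcc
28S rRNA fragment, 31 bases: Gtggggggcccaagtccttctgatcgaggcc
28S rRNA, assembled around the fragment: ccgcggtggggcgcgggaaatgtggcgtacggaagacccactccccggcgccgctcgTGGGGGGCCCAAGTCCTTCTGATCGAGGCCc
The other abundant members are shown because they represent the classes described here. They are the leading reads of other 28S positions, of the remaining rRNAs, of RMRP, which is the RNA of RNase MRP, and of the tRNA 5’ parts. Capitals in the iMet and Arg-TCT sequences mark position 9 of the tRNA.
28S rRNA, position B: cgcgacctcagatcagacgtggcgacccgc
28S rRNA, position C: cggcggcgactctggacgcgagccgggccc
5S rRNA: ccgcctgggaataccgggtgctgtaggctt
5.8S rRNA: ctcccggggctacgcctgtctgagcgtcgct
18S rRNA: ggatggtttagtgaggccctcggatcggcc
RMRP: aggtcgtgctgaaggcctgtatcctaggct
tRNA-Lys-CTT 5' part: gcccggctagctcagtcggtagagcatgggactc
tRNA-Gly-GCC 5' part: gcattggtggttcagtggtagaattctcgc
tRNA-iMet 5' part: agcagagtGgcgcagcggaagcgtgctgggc
tRNA-Arg-TCT 5' part: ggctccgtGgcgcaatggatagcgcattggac
Mitochondrial reads came in versions that differ by 1 base, which is in capitals.
antisense to mt-tRNA-Gln, T version: ggactgtaggTatcgaacctacccctgaga
antisense to mt-tRNA-Gln, C version: ggactgtaggCatcgaacctacccctgaga
mt-tRNA-Ser(AGY), A version: gagaaaActcgcgaggactgctaacccatg
mt-tRNA-Ser(AGY), G version: gagaaaGctcgcgaggactgctaacccatg

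The share of valid reads in long reads was far higher in liver than in any other profile. It was 4.05% in liver (95% Wilson interval from 4.04% to 4.06%, for counting error only), 0.908% in muscle 1, 0.544% in lung, 0.408% in kidney 2, 0.371% in kidney 1 and 0.259% in muscle 2. It was 0.194% in occipital lobe, 0.190% in large intestine 2, 0.188% in spinal cord, 0.186% in large intestine 1, 0.0848% in small intestine 2 and 0.0810% in small intestine 1. The 2 kidney, the 2 large intestine and the 2 small intestine profiles lay close to each other, whereas muscle 1 and muscle 2 did not. Liver alone held 55.3% of all long reads, and as it had 1 profile it was not tested.

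Of the 5 tissue groups that were tested, small intestine lay below all 10 other profiles. Its mean was 0.0829% ± 0.00267 (SD, n = 2), and that of the other profiles was 0.730%. The two-sided exact permutation test gave p = 0.0303, which is the smallest value that 66 arrangements allow, and 0.152 after Benjamini-Hochberg adjustment over the 5 groups. Kidney, muscle, large intestine and neural tissue had exact permutation p-values between 0.394 and 0.758, so no group passed the threshold of 0.05 after adjustment. Without liver, the mean difference of small intestine from the other profiles shrank from -0.647 to -0.278 percentage points.

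**Figure D1:**
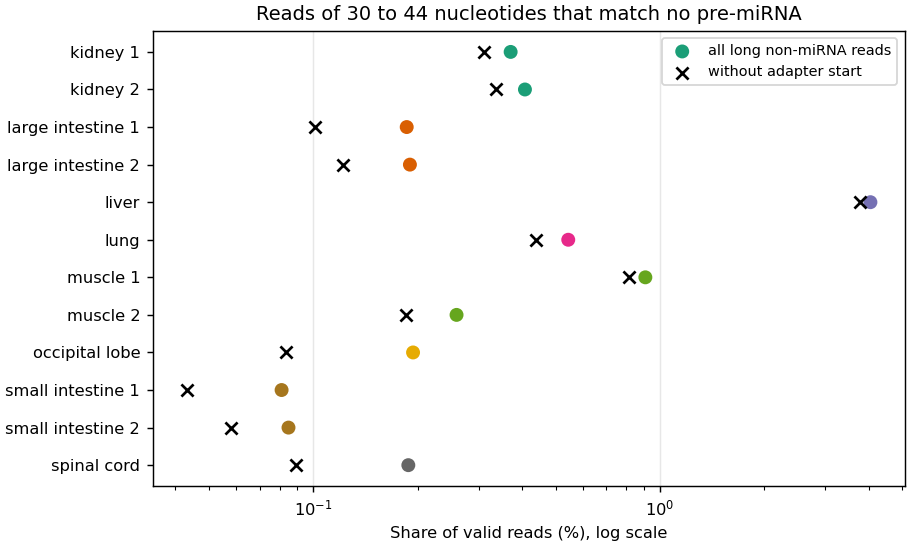
Share of valid reads (%, log scale) in reads of 30 to 44 nucleotides without a pre-miRNA match, for each of the 12 profiles. Coloured points are all such reads, with one colour per tissue, and crosses are those without the start of the 3’ adapter, and liver (4.05%) lies to the right of all other profiles while both small intestine profiles (0.0810% and 0.0848%) lie to the left.

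Many long reads held the first 5 letters of the 3’ adapter, TGGAA, after base 18, which is called the adapter start here. Their share of the long reads was 6.65% in liver, 9.99% in muscle 1, 16.1% and 17.3% in the kidney profiles, 19.6% in lung, 28.6% in muscle 2, 31.8% and 46.7% in small intestine, 35.8% and 45.6% in large intestine, and 57.1% and 52.6% in occipital lobe and spinal cord. Where these letters are the adapter, the RNA is shorter than the read. An RNA can also hold these 5 letters itself, and such reads were not told apart. The share was lowest in liver and highest in the neural profiles. Among the long reads that did match a pre-miRNA, which were not members, 94.2% to 96.3% held these letters. Without the adapter start, the long reads took 3.78% of the valid reads in liver and 0.0432% in small intestine 1, which remained the highest and the lowest profile.

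All 12 profiles had their mode at 30 nucleotides, the shortest length of the rule, with or without the reads with adapter start. Reads of 30 and 31 nucleotides were 55.8% of the long reads in spinal cord, 86.2% in liver and 68.3% in the median profile. Reads of 32 to 34 nucleotides were 11.4% in liver and 29.7% in spinal cord, and those of 35 to 44 nucleotides were 2.38% and 14.6%. Without adapter start, the number of reads did not rise from one length to the next in 8 profiles, with an equal number at 1 step in large intestine 1 and in lung, and in the other 4 it rose only at 1 or 2 lengths of 40 nucleotides or more. There was thus no separate peak of all long reads between 32 and 35 nucleotides in any profile. However, the libraries were gel-purified for inserts of 15 to 30 nucleotides, so all lengths above 30 lie beyond this size cut. The mode and the missing peak therefore describe the libraries and cannot show the lengths of these RNAs in the tissues.

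The reads just outside of the rule, at 29 nucleotides, took from 0.0357% (small intestine 1) to 1.48% (liver) of the valid reads, and those just inside, at 30 nucleotides, from 0.0370% to 2.37% of the same profiles. The number at 30 was above that at 29 in liver, lung (0.350% against 0.269%) and small intestine 1, and below it in the other 9 profiles. At the upper edge, 44 nucleotides, the share was at most 7.82e-05%.

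**Figure D2:**
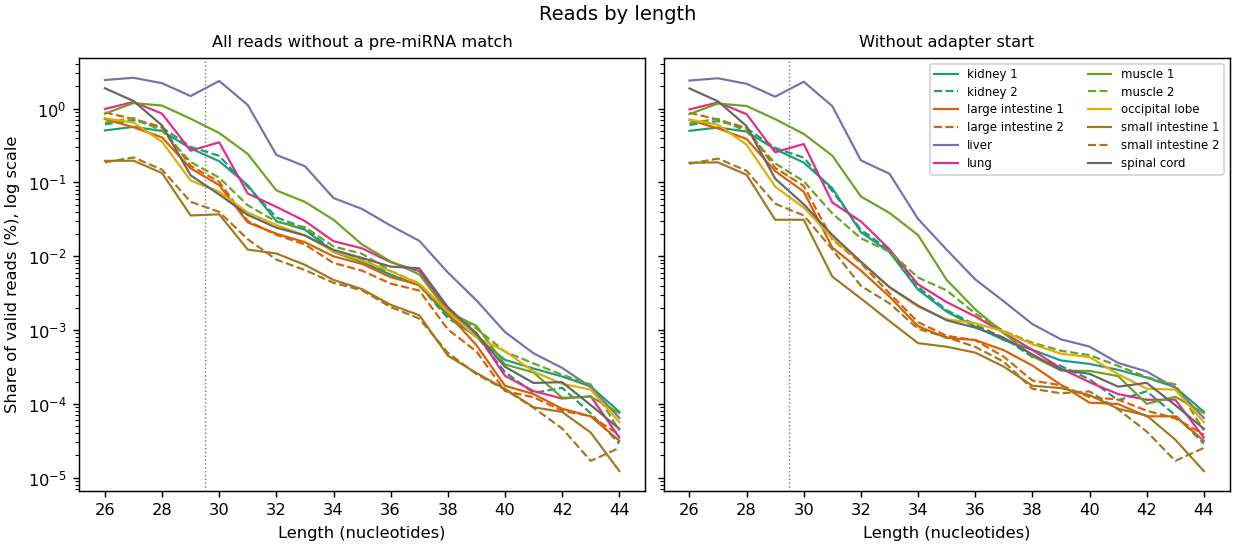
Share of valid reads (%, log scale) at each length from 26 to 44 nucleotides, for all reads without a pre-miRNA match (left) and for those without adapter start (right), with 1 line per profile, dashed for replicate 2. The dotted line marks the lower edge of the rule, and liver rises from 1.48% at 29 to 2.37% at 30 nucleotides before all lines fall.

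rRNA was the largest named class, and 28S rRNA alone held 48.5% of all long reads. As each class was called by an exact match to the assembled sequences, 28% of the reads were unassigned and another 14.4% were unassigned reads with adapter start. The antisense strand of mitochondrial tRNAs held 2.21%, 18S rRNA 1.98%, 5S rRNA 1.51%, tRNA 5’ parts 1.32%, 5.8S rRNA 0.560%, RMRP 0.538%, sequences with C and D box letters 0.310%, sense mitochondrial tRNAs 0.269% and tRNA 3’ parts 0.170%. Mitochondrial rRNA, 7SL RNA, Y RNAs and vault RNAs were each below 0.1%, with 0.0817%, 0.0696%, 0.0629% and 0.0127%. As liver held 55.3% of these reads, the mean over the 12 profiles differed, with 31.8% for 28S rRNA, 0.790% for RMRP and 0.444% for 5.8S rRNA, and unassigned reads with adapter start had a median of 30.2%. The share of assigned reads ranged from 19.6% in occipital lobe to 66.7% in liver. With 1 mismatch it was 71.9% of all reads instead of 57.6%.

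The composition differed between profiles. 28S rRNA held 61.2% of the long reads in liver and 51.6% in lung, between 17.1% and 35.4% in kidney, muscle and both intestines, and 15.8% and 16.9% in occipital lobe and spinal cord. tRNA 5’ parts held 6.22% in muscle 1, 3.18% in muscle 2, 0.976% in lung and at most 0.830% elsewhere. RMRP held 4.89% in muscle 2, 1.67% in muscle 1 and at most 0.510% elsewhere. Antisense mitochondrial tRNAs held 11.8% and 10.2% in the kidney profiles, 7.34% and 4.62% in muscle 2 and muscle 1, and at most 2.18% elsewhere.

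Of 8 classes in 5 groups, 40 pairs were compared by two-sided exact permutation tests and 0 passed the threshold after adjustment, with a smallest adjusted value of 0.173. In 7 pairs, both profiles of the group lay above or below all 10 others, which gives the smallest possible exact p of 0.0303. Muscle was the higher one for tRNA 5’ parts (mean 4.70% ± 2.15 (SD, n = 2) against 0.528% in the others), RMRP (3.28% ± 2.27 against 0.293%), 5.8S rRNA (0.934% ± 0.356 against 0.346%) and sequences with C and D box letters (0.915% ± 0.423 against 0.170%). Kidney was higher for antisense mitochondrial tRNAs (11% ± 1.13 against 1.75%). The neural group was lower for 28S rRNA (16.4% ± 0.744 against 34.8%) and for sequences with C and D box letters (0.0123% ± 0.00477 against 0.350%). These shares include the reads with adapter start, whose share was highest in the neural profiles. Without them, 28S rRNA held 36.9% and 35.6% in occipital lobe and spinal cord and 23.9% in muscle 2, so that the neural group was no longer below all others, and neither 5.8S rRNA nor the sequences with C and D box letters (1.35% and 0.863%, against 0.869% in small intestine 2) still set muscle above all others. The other 4 pairs remained apart, and 3 more were then apart, of which the neural group was higher for 5S rRNA (3.64% against 1.84%). After adjustment 0 pairs passed, with 7 at the smallest exact p.

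**Figure D3:**
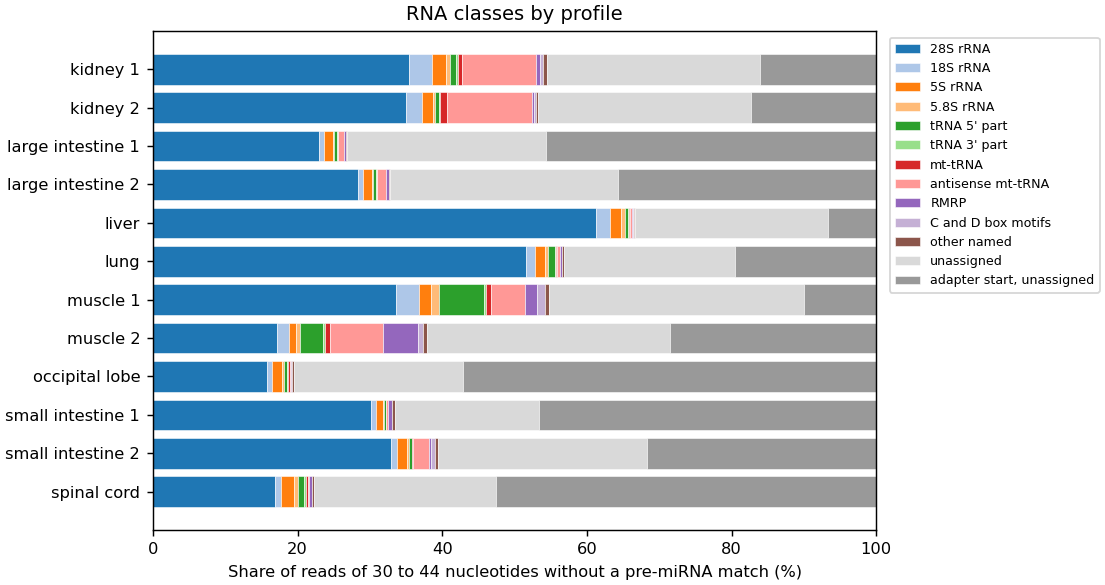
RNA classes as shares (%) of the long reads of each of the 12 profiles, as stacked bars that add up to 100%, with reads with adapter start in dark grey and other unassigned reads in light grey. Liver has the largest part of 28S rRNA (61.2%), muscle the largest parts of tRNA 5’ parts (6.22% and 3.18%) and kidney the largest parts of antisense mitochondrial tRNA (10.2% and 11.8%).

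To compare tissues read by read, sequences with the same first 20 nucleotides were counted as 1 family, and each group was compared with the mean of the others by edgeR’s quasi-likelihood test over all 16465 families, miRNAs and shorter reads included. Of these, 1003 were long families, with 91.5% of the reads of all long families, 709 could be named and 596 were rRNA. Muscle had 99 long families with an adjusted p below 0.05 that were higher (9.87% of the long families, against a background of 5.90% of all families). Of these, 29 had fewer than 100 reads outside of muscle, so that they passed the minimum total of 100 reads only through muscle. The share of 9.87% includes them, and such families were not counted in the background, so the 2 shares show no excess by themselves. The number of higher families, 99, included 27 of rRNA, 16 of tRNA and 13 mostly of reads with adapter start. This number was 8 without muscle 1 and 152 without muscle 2. Kidney had 42 higher ones (4.19%, against 3.04% of all families), of which 20 were mostly reads with adapter start, and it had 0 without either kidney profile, with 96 and 148 at an unadjusted p below 0.05. In these fits, the remaining profile is assumed to vary like the other groups. The kidney number was also between 20 and 25 without lung, muscle 2, small intestine 1 or small intestine 2.

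In the intestines and the neural group, the share of higher long families was below the background. The numbers of kidney, the intestines and the neural group can include families that reached the minimum of 100 reads only through the group. Such families were counted for muscle alone. Small intestine had 43 (4.29%, against 12%), large intestine 81 (8.08%, against 19.1%) and the neural group 18 (1.79%, against 15.4%). Of these, 41, 61 and 15 were mostly reads with adapter start, and 41, 52 and 6 differed from a pre-miRNA by 1 base over their first 18. When sequences with adapter start were left out, 2, 18 and 2 families were higher in these groups, against 35 in kidney and 123 in muscle. The neural group had 89 lower long families (8.87%, against a background of 5.55%), of which 48 were rRNA and 31 were unnamed, and 101 without adapter start. In large intestine, 6 were lower (0.598%, against 0.990%), and in small intestine 2 (0.199%, against 0.255%). With valid reads as library sizes in place of edgeR’s TMM scaling, 25 were higher and 421 lower in small intestine, and 54 higher and 104 lower in large intestine. With edgeR and TMM, 0 long families were lower in kidney, where 0.206% of all families were, and 0 in muscle, where 1.29% were. At an unadjusted p below 0.05, there were 9 in kidney and 6 in muscle, and with DESeq2 there were 3 and 9. Leaving out 1 profile changed the number of higher families to 21 in small intestine (without small intestine 1), to 36, 44 and 53 in large intestine (without large intestine 1, large intestine 2 or liver) and to 8 and 6 in the neural group (without occipital lobe or spinal cord). The 89 lower neural families became 20 without either neural profile, and 56 and 58 without kidney 1 or kidney 2.

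The family of the leading 28S fragment was the most abundant family of long reads in 8 of the 12 profiles. In kidney 1 and muscle 1 it was that of the longer form, in muscle 2 that of the T version antisense to mt-tRNA-Gln, and in spinal cord one of mt-tRNA-Ser(AGY). Of the long reads of this last family, 56.1% held the adapter start, and only 0.808% of its reads in spinal cord were long. The leading fragment’s 30-nucleotide form was counted 428690 times and had 129473 RPTM in liver, 19128 in lung, 6847 and 941 in muscle 1 and muscle 2, 5660 and 2976 in kidney 2 and kidney 1, 3576 and 2819 in large intestine 2 and large intestine 1, 1726 and 1585 in small intestine 1 and small intestine 2, and 241 and 369 in occipital lobe and spinal cord. Liver was highest, and both neural profiles were below all the others. The family of this fragment was lower in the neural group by a log2 fold change of -3.93 ± 0.77 (SE, edgeR adjusted p = 0.00907), and passed no threshold in the other groups. Nearly all reads with this start were long, as 96.8% to 99.5% of the reads with the same first 20 nucleotides had 30 or more nucleotides.

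The longer form starts 1 nucleotide further 5’, with a G that is also found in the assembled sequence. It was counted 196199 times, with 62828 RPTM in liver, 9179 in muscle 1, 3676 and 2532 in kidney, 512 in small intestine 2, 363 in muscle 2, 102 in lung, 83.3 and 65.1 in large intestine, 49.1 in small intestine 1, and 28.7 and 38.5 in occipital lobe and spinal cord. The share of reads with this earlier start differed between profiles, also within tissues. It was 61.4% and 38.3% in muscle 1 and muscle 2, 57.0% and 33.2% in kidney 1 and kidney 2, 34.5% in liver, 27.0% in small intestine 2, 10.2% in occipital lobe, 9.97% in spinal cord, 3.61% in small intestine 1, 3.54% and 3.41% in large intestine and 1.48% in lung. The 2 small intestine profiles thus lay far apart. A similar choice between neighbouring starts was seen in the 5S rRNA, where the earlier start held 31.2% and 16.1% in kidney, 31% in liver, 30.1% in small intestine 2, 29.8% and 28.3% in muscle, whereas the 6 remaining profiles had 2.72% to 8.25%. The same 6 profiles were the low ones for both RNAs. At position B of 28S rRNA, these 6 were also the low ones, with 0% to 1.29%, against 1.40% in liver to 6.01% in muscle 1. The earlier start there had few reads, with at most 8 in each of the 6 and 4 in small intestine 2. For 5.8S rRNA it held 92.5% and 94.1% in muscle, 89.5% in small intestine 2 and 72.7% in liver. There, kidney (61.9% and 62.3%) lay among the other profiles, which had 50% to 65.3%. Other pairs did not divide the profiles in this way. The earlier start held 23.4% to 34.7% and 51.3% to 57.7% for 2 pairs at position C of 28S rRNA, and 93.6% to 98.7% for another pair of the 5S rRNA.

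Other 28S positions were far less abundant and came from families with many shorter reads. The read at position B was counted 12396 times, with 4175 RPTM in liver, 258 in muscle 1 and 6.52 in occipital lobe, and 1.19% to 25.2% of the reads of its family were long. The read at position C was counted 13720 times, with 2795 RPTM in liver, 825 in lung and 31.2 in small intestine 2. In its family, between 10.5% and 35.2% of the reads were long. Among the 393 tested families of 28S rRNA, 19 were higher in muscle, 7 in kidney, 3 in large intestine, 1 in small intestine and 5 in the neural group, and 33 were lower in the neural group, 4 in large intestine and 2 in small intestine. The share in muscle, 4.83%, was below the background of 5.90% of all families, and the 8.40% lower in the neural group compare with 5.55%.

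The 5S rRNA, a polymerase III transcript of the large subunit, was represented mostly by its 3’ end, where the most abundant read lay. It had 6190 RPTM in liver, 1504 and 224 in muscle, 773 in lung, 686 and 600 in kidney, 283 and 346 in occipital lobe and spinal cord, 231 and 216 in large intestine, and 116 and 80.2 in small intestine. 18S rRNA, of the small subunit, had 7939 RPTM in liver, 2879 and 456 in muscle, 1198 and 892 in kidney, 649 in lung and at most 143 elsewhere. 5.8S rRNA had 2072 RPTM in liver, 1077 and 176 in muscle, 238 and 152 in kidney, 203 in lung, 110 in spinal cord and at most 47.8 elsewhere. For each of these 3 RNAs, liver was the highest profile and small intestine 1 the lowest. Of the tested families, 2 of 26 of 5S rRNA, 2 of 35 of 5.8S rRNA and 4 of 142 of 18S rRNA were higher in muscle, and 3 of 5S rRNA and 12 of 18S rRNA were lower in the neural group. In muscle these are 7.69%, 5.71% and 2.82%, near or below the background of 5.90%. In the neural group, the 3 of 5S rRNA are 11.5% and the 12 of 18S rRNA are 8.45%, against 5.55%.

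Abundant tRNA 5’ parts came from tRNA-Lys-CTT and tRNA-Gly-GCC, which carry lysine and glycine. tRNA-Lys-CTT had 1602 RPTM in muscle 1, 380 in liver, 266 in muscle 2, 247 in lung, 95.8 and 25.2 in kidney, and between 3.68 and 27.6 elsewhere. Gly-GCC had 1191 RPTM in muscle 1, 753 in liver, 109 in muscle 2, 62.9 and 49.6 in kidney, 49.4 in lung, and at most 27.6 elsewhere. For both RNAs, muscle 1 was the highest and liver the next profile, and muscle 2 was below liver.

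Of 10 further tRNAs, muscle 1 was also highest for Glu-TTC (547 RPTM, against 57.3 in liver and 15.7 in muscle 2), the initiator tRNA iMet (343, against 149 in muscle 2 and 88.3 in liver), His-GTG (307, against at most 10.5) and Val (288, against 132 in muscle 2 and 127 in liver). Arg-TCT was highest in lung (39.4) and muscle 1 (38.8), and Gln-CTG was highest in liver (254). Tyr-GTA (264), Lys-TTT (194), Ser-GCT (111) and Asp-GTC (19.4) were also highest in liver. Their reads were called by exact match to the named sequences, which for these tRNAs held only 3’ parts. Reads of their 5’ parts could thus be among the unassigned ones. Lys-CTT and Glu-TTC had named reads of both parts, with 6257 reads of the 5’ and 248 of the 3’ part, and 1504 and 91.

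By edgeR’s test, the leading family was higher in muscle for Lys-CTT (log2 fold change 4.69 ± 0.56 (SE), adjusted p = 0.00251), Gly-GCC (4.77 ± 0.66, adjusted p = 0.00484), Glu-TTC (5.37 ± 0.94, adjusted p = 0.0144), His-GTG (4.64 ± 0.71, adjusted p = 0.00771) and Val (3.03 ± 0.55, adjusted p = 0.0174). In the first 3 of these families and in that of Val, muscle 2 was nevertheless below liver, as the Gly-GCC family had 1370 RPTM in muscle 1, 742 in liver and 114 in muscle 2. In that of His-GTG, muscle 2 (18.3 RPTM) was below large intestine 1 (21.7). The test sets muscle against the mean of 6 other groups, of which liver is 1. For iMet there were 4 tested families, which come from the same tRNA, since its reads differ at position 9. In 3 of them, fewer than 100 reads lay outside of muscle, so that they passed the minimum only through muscle, and no test is given. One of these had 61.3 and 27.5 RPTM in muscle and at most 10.1 elsewhere. Of the 99 families that were higher in muscle, 29 were of this kind.

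Among the exact matches to the assembled sequences, the lengths of tRNA 5’ parts set them apart from each other. Lys-CTT had its mode at 34 nucleotides, and 63.8% of its reads had 33 or more. Val had its mode at 33 nucleotides, with 69.0% of 33 or more. iMet had its mode at 31 and Arg-TCT at 32 nucleotides. Gly-GCC, Glu-TTC and His-GTG had their mode at 30 nucleotides, at which 84.5%, 94.7% and 95.4% of their long reads lay. Of the reads with the same first 20 nucleotides, 21.2% to 96.0% were long for Lys-CTT, with 84.3% in muscle 1 and 95.1% in liver. For His-GTG, at most 6.41% were long in any profile. Long reads were thus the main part of the reads of Lys-CTT in muscle 1 and liver, but not in every profile, and a small part of those of His-GTG.

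Some tRNA reads carried different letters at positions that are known to be methylated in tRNAs. At position 9, iMet reads had G in 56.2% of 1921 reads, T in 12.4%, C in 7.55% and A in 5.73%, and in 18.2% the base was skipped. In Arg-TCT, G had 58.4% of 373 reads, T had 13.4%, and 17.4% skipped the base. In the 3 profiles with the most reads, iMet had G in 53.6% of 1075 reads in muscle 1, in 60.2% of 470 reads in muscle 2 and in 59.9% of 312 reads in liver. The same position was nearly uniform in Gly-GCC (99.9% G of 5611 reads) and Lys-CTT (99.8% A of 7019 reads).

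In the 3’ parts, the base 19 places from the 3’ end of the mature tRNA, counted back from the last A of CCA, also varied. Lys-TTT had A in 35.8% of 1263 reads, G in 44.7% and T in 19.5%. Lys-CTT had A in 53.1% of 286 reads, T in 34.3% and G in 11.9%. Tyr-GTA had T in 59.9% of 1148 reads and A in 39.3%. In Tyr-GTA, T had 55.6% of 694 reads in liver, 57.8% of 102 in kidney 1, 40.8% of 98 in kidney 2 and 78% of 100 in muscle 1. Different genes for the same tRNA could hold different letters at this base, and their part in these shares was not tested.

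RMRP, which takes part in the processing of precursor rRNA, was high in both muscle profiles. It had 1516 RPTM in muscle 1 and 1264 in muscle 2, followed by 630 in liver, 189 and 79.4 in kidney, 169 in lung, 72.7 and 43.9 in large intestine, 55.6 in spinal cord, 34.4 and 25.3 in small intestine and 23.9 in occipital lobe. Both muscle profiles lay above all the others and close to each other. Its leading family was higher in muscle by a log2 fold change of 3.43 ± 0.26 (SE, edgeR adjusted p = 0.000384) and lower in the neural group by -2.41 ± 0.36 (adjusted p = 0.00257). In RPTM, this family had 47.4 and 77.8 in the neural profiles but 51.6 and 41.3 in small intestine, and the TMM factors ranged from 0.317 in small intestine 2 to 4.57 in liver. With valid reads as library sizes, edgeR’s log2 fold change was -2.19 ± 0.35 (adjusted p = 0.00291) in the neural group and -2.69 ± 0.37 (adjusted p = 0.00152) in small intestine. Of the 9760 reads that matched its assembled sequence exactly, 96.2% had 30 nucleotides, in only 6 unique sequences. This sharp length holds for the exact matches only. The whole family had 154 unique long sequences and 14631 long reads, of which the leading read held 9394. Between 85.2% and 98.9% of the reads with this start were long.

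Y RNAs, which bind the Ro60 protein, were rare. RNY4 had 115 RPTM in muscle 1, 71.0 in liver, 19.2 in spinal cord, 16.1 in muscle 2 and at most 13.3 elsewhere, and its mode was at 31 nucleotides. RNY1 had 38.8 RPTM in muscle 1, 23.6 in lung, 19.2 in spinal cord and at most 10.1 elsewhere. RNY3 had 22.2 in liver, 18.8 in kidney 1, 16.7 in muscle 1, and at most 8.28 elsewhere. Of the 5 tested families, 1 of RNY4 was higher in muscle (log2 fold change 2.52 ± 0.60 (SE), edgeR adjusted p = 0.0451) and another of RNY4 was higher in the neural group. Each is 33.3% of the 3 tested families of RNY4, against 5.90% and 15.4% of all families, and rests on a single family. The most abundant reads of these Y RNAs all start at the first base of the RNA.
RNY4: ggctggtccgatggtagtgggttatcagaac
RNY1: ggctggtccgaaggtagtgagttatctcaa
RNY3: ggctggtccgagtgcagtggtgtttacaac
RNY5 was not among the named sequences.

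7SL RNA, of the signal recognition particle, had 295 RPTM in liver, 75.5 in muscle 1 and at most 36.4 elsewhere, and vault RNA had at most 23.4 (liver). Neither had a family that passed the threshold among the 8 and 1 tested ones. Among the assembled sequences, 13 of 312 had no other name and held the letters TGATGA followed by CTGA, searched on the strand of the reads. These are the letters of the C and D boxes of a class of small nucleolar RNAs. Only unnamed sequences of at most 44 nucleotides were searched, and the letters alone do not show that a sequence comes from such an RNA. They had 1102 RPTM in muscle 1, 693 in liver, 165 and 101 in kidney, 159 in muscle 2, 50.2 in small intestine 2 and at most 17.9 elsewhere, with 1.67 in spinal cord. Of their 17 tested families, 6 were higher in muscle (35.3%, against 5.90% of all families). In the neural group 5 were lower (29.4%, against 5.55% of all families).

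**Figure D4:**
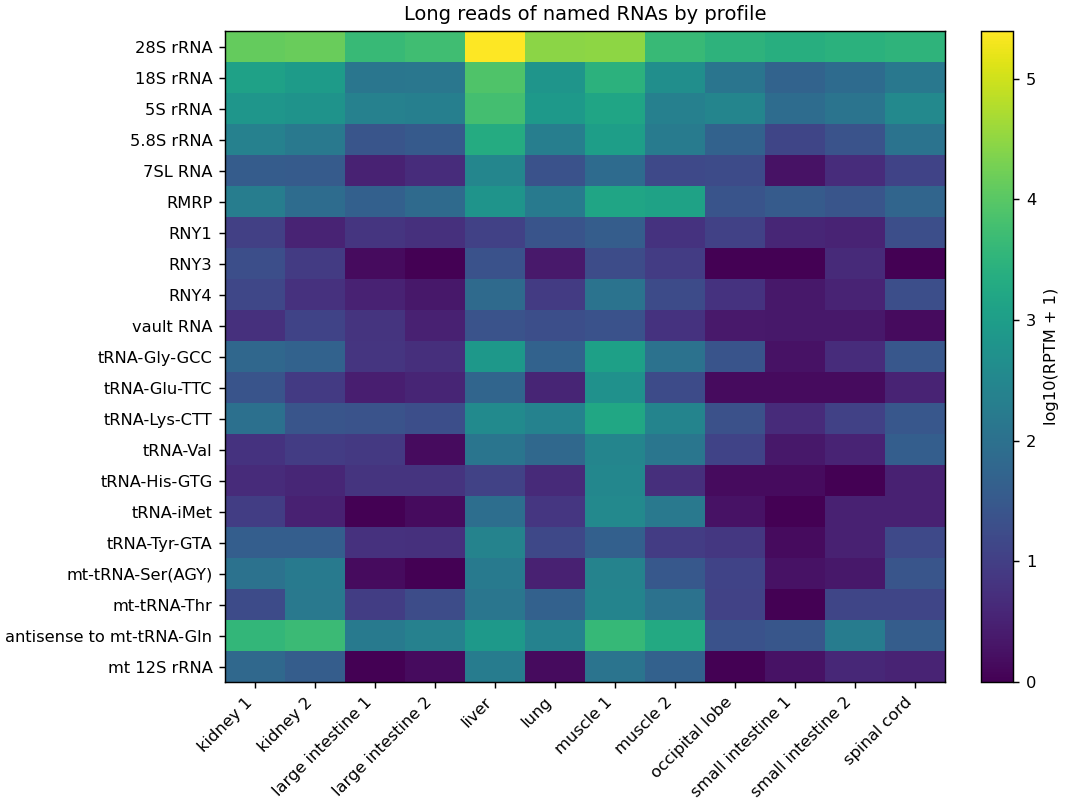
Level of long reads of 21 named RNAs (rows) in the 12 profiles (columns) as log10(RPTM + 1), from dark (low) to bright (high). Liver is brightest for 28S rRNA (248059 RPTM), both muscle profiles are bright for RMRP (1516 and 1264), and muscle 1 is brighter than muscle 2 for the tRNA 5’ parts.

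The most abundant mitochondrial long read was antisense to mt-tRNA-Gln. In the mitochondrial genome, this tRNA lies on the opposite strand to its neighbours, so that a transcript of these holds its antisense. The antisense reads had 4827 and 3779 RPTM in kidney 2 and kidney 1, 4196 and 1898 in muscle 1 and muscle 2, 835 in liver, 241 in lung, 233 and 155 in large intestine 2 and large intestine 1, 185 in small intestine 2, 26.6 in small intestine 1, and 22.2 and 38.5 in occipital lobe and spinal cord. Kidney and muscle were thus above all the other profiles, without overlap. Exact sense reads of this stretch were few. Among reads of all lengths, the reverse complement of the first 22 bases was found in 3 for the T version and 51 for the C version. Of these, 1 and 8 ended in CCA. Sense reads with a changed base or from other parts of the tRNA were not searched.

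The reads came in versions with T or C at position 11 of the read (T11C). In kidney 2, both large intestine profiles, lung, both muscle profiles and small intestine 2, between 98.9% and 99.9% of the long reads with this start had T, counted over the first 25 bases with reads with adapter start included. In kidney 1, liver, occipital lobe, small intestine 1 and spinal cord, 0.151%, 0.381%, 1.12%, 7.04% and 4.76% had T and the others had C. mt-tRNA-Ser(AGY), whose reads had A or G at position 7 (A7G), divided the profiles in the same way, with A in 95.6% to 99.9% of the reads in the first 7 profiles and in 0.110% to 1.22% in the other 5. The profiles of kidney and of small intestine thus held different versions, whereas both muscle and both large intestine profiles held the same. The labels do not tie the profiles to animals, and the origin of the versions was not tested.

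Since a family is defined by its first 20 bases, each version is a family of its own. The family of the C version was higher in kidney (log2 fold change 7.18 ± 1.53 (SE), edgeR adjusted p = 0.0497), although it had 4120 RPTM in kidney 1 and 6.61 in kidney 2, and did not pass with valid reads as library sizes (adjusted p = 0.0567). The family of the T version had 4580 RPTM in kidney 2 and 5.86 in kidney 1, with an adjusted p of 0.152. The sum of both versions, given above, is the level to compare. Sense mt-tRNA-Thr had 275 RPTM in muscle 1, 151 in kidney 2, 131 in liver and 107 in muscle 2, but 16 in kidney 1. Mitochondrial 12S rRNA had 179 RPTM in liver, 119 and 47.5 in muscle, 66.9 and 38.4 in kidney, and at most 2.95 elsewhere.

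**Figure D5:**
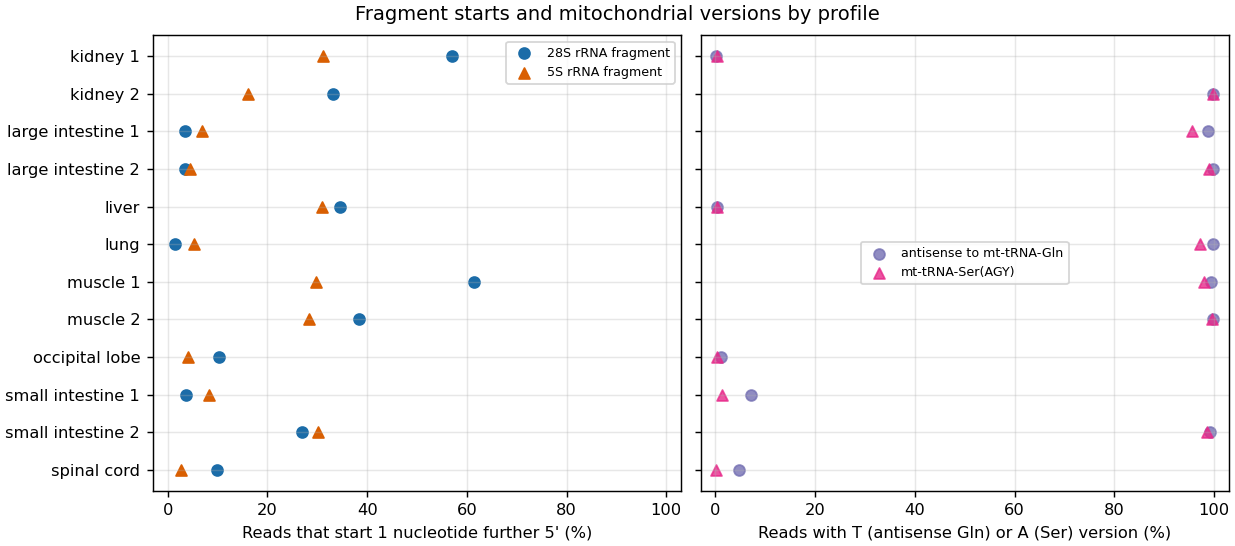
Left, share of reads (%) that start 1 nucleotide further 5’ for the leading 28S rRNA fragment (circles) and for the 5S rRNA fragment (triangles), and right, share of reads (%) with the T version of the antisense mt-tRNA-Gln (circles) or the A version of mt-tRNA-Ser(AGY) (triangles), each in the 12 profiles. On the left the 2 small intestine profiles lie apart (3.61% and 27.0% for 28S), and on the right every profile lies near 0% or near 100% for both RNAs.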

How the data were processed

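Small RNA libraries of total RNA from 12 tissue samples were made with the TruSeq kit, gel-purified for inserts of 15 to 30 nucleotides, and sequenced by the authors. They removed the 3’ adapter, kept sequences of at least 18 nucleotides with high scores and deposited the counts of unique sequences without normalization. The longest sequence had 44 nucleotides. No other columns were present.

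The members and lists were chosen with earlier results of these data known. Sequences were processed in Python 3.11.15 (numpy 2.4.6, pandas 2.3.3, scipy 1.17.1). The match to RefSeq genes that had been planned was not possible without reference sequences, so classes came from exact matches to sequences assembled from the reads (overlaps of 18 bases with at least 20 reads), which were named from general knowledge. Only 832 pre-miRNAs could be read, so that reads of others remain members. Reads within 1 base of a pre-miRNA also remain, and led 89 of the 1003 tested long families.

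Counts of families were tested in R 4.3.3 with edgeR 4.0.16 (limma 3.58.1, TMM, 7 groups), with DESeq2 1.42.0 as an alternative. Standard errors were derived from the F statistic. On simulated counts for muscle (16603 families, 100 changed 4-fold and 100 changed 8-fold), 34% and 78% of the changed families were recovered and 13.8% of 130 calls were false. Because 27.3% of 172 calls were false at the default minimum total of 15 reads, a minimum of 100 was used. The depth of 22118095 to 25579064 reads makes a single read about 0.4 RPTM. Named families were the 10 with the highest mean, the top family of each profile, the 3 with the largest change in each group among those above all other profiles, and those of a list of tRNAs, Y RNAs, rRNAs and other RNAs. Unnamed ones were only counted, and 1 tRNA is not reported here. Alternatives were other length limits, miRNA filters, denominators, mismatches, family lengths, scalings, filters and groups, a replicate block, leaving out each profile and leaving out adapter starts, the last chosen after seeing the data.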

Additional observations from a re-analysis of the deposited data

Results flagged for a closer look

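The rule leaves out the 1044727 long reads that match a pre-miRNA, a signal in data that the comparisons do not use. Their share was lowest in liver, with 0.245% of the valid reads, and highest in kidney 1, with 0.438%, and in every profile at least 94.2% of them held the adapter start.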

How the results depend on the processing

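For the share of valid reads, 38 of 44 alternative values and 57 of 60 values with 1 profile left out kept their direction and their side of the threshold. The difference of muscle from the other profiles, -0.0467 percentage points, became 0.285 and 0.0240 with a shortest length of 28 or 32 and 1.09 with reads without a pre-miRNA match as denominator, with which kidney changed from -0.279 to 0.579. Leaving out single profiles gave -0.344 to 0.0969 in kidney, -0.371 to 0.333 in muscle (0.278 without muscle 2, 0.333 without liver), -0.590 to -0.149 in large intestine, -0.587 to -0.146 in the neural group and -0.707 to -0.278 in small intestine. For the reversals no cause was tested.

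The mean share over profiles of 28S rRNA, 31.8%, was 38.5% with 1 mismatch, 41.5% by the first 25 bases, 44.9% without adapter start and 3.67% of unique sequences. Under these settings, 5S rRNA was 1.85%, 2.10%, 2.14% and 0.115%, 5.8S rRNA 0.670%, 1.17%, 0.626% and 0.185%. 18S rRNA was 3.19% by the first 25 bases, and antisense mitochondrial tRNA was 0.0392% of unique sequences.

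Numbers of higher long families are given in the order kidney, muscle, small intestine, large intestine and neural. They were 29, 161, 25, 54 and 23 with valid reads as library sizes, which moved the median of all families by -0.23, 0.18, -1.96, -1.09 and 0.21 (log2) and made 421 families lower in small intestine and 104 in large intestine. They were 87, 307, 82, 232 and 70 with a minimum of 15 reads, 263, 644, 108, 349 and 120 without that filter, and 101, 212, 44, 81 and 25 with DESeq2. With the other profiles as a single group they were 0, 9, 0, 11 and 7, with 28 in kidney and 17 in small intestine at an unadjusted p below 0.05. Lower neural families, 89, were 17 with a single other group and 213 with DESeq2. With 1 profile left out, the ranges were 0 to 41, 8 to 152, 21 to 48, 36 to 83 and 6 to 19, and 20 to 131 for lower neural ones.

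Profiles with the same number are not stated to share an animal. The difference between the numbered profiles of each tissue was correlated between tissues. The values were -0.08 to 0.22 over all families and -0.12 to 0.15 over the long ones. The highest values, 0.22 and 0.15, were those of kidney with small intestine. Differences between profiles may in part be technical, so these correlations cannot show whether the numbers pair the profiles. With a replicate block on the 8 numbered profiles, the shares of kidney and muscle changed to 0.105 and 0.363 percentage points above the others, and 23, 38, 26 and 35 long families were higher in kidney, muscle, small and large intestine. Without a block, these 8 profiles gave 59 in muscle, 28 in small intestine and 40 in large intestine. No depth limit applies to the leading RNAs, while RNAs under about 1.36 RPTM cannot be told from absence.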

Other observations

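Some long reads joined the end of 5S rRNA to the start of 5.8S rRNA, genes that are transcribed separately. The junction of 10 bases of 5S rRNA and 8 bases of 5.8S rRNA was found in 135 reads of 23 unique sequences in 11 of 12 profiles, 21 of them in liver. The most abundant one, with 55 reads, is shown with the 5.8S part in capitals.
joined 5S and 5.8S: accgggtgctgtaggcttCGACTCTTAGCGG
Of the 81 higher long families of large intestine (8.08%, against 19.1% of all families), 15 were unnamed and not mostly reads with adapter start. How many tested families were unnamed in this way was not counted, so the 15 show no excess. Of the 3 unnamed families with the largest change there, the most abundant had 161 RPTM in large intestine 2, 35.3 in large intestine 1 and at most 0.436 elsewhere, and its RNA was not identified. It thus passed the minimum of 100 reads only through large intestine, and no test is given for it. How many of the 15 were of this kind was not counted. Parts of an oligonucleotide of the library kit were found in 799 long reads, with 17.2 to 67.0 RPTM in every profile.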
